A study of Mus musculus with 8 samples.

Results

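The 39 genes described here encode the machinery that folds, checks and degrades proteins in the endoplasmic reticulum (ER). They were taken by symbol from a set list, and all 39 were present among the 21049 gene symbols of the table. By role they comprise 11 chaperones and their cofactors, 8 members of the disulfide isomerase family, 9 genes of ER-associated degradation, 8 genes of the translocon and 3 sensors and transcription factors of the unfolded protein response. RNA was sequenced from 4 alcohol samples and 4 control samples labelled as mouse liver. The alcohol group is wild type (WT) and was fed alcohol, and the control group is wild type, from the C57BL/6 strain, and received saline. The dose, the feeding time, and the age and sex of the animals are not stated by the labels, and all 8 samples carry 1 batch label. The labels also name hepatocytes and AML12, a mouse hepatocyte line, for every sample, yet the libraries held transcripts of endothelium, Kupffer cells and erythrocytes. Nothing in the labels ties each sample to an animal of its own, so a p-value here reflects only how far these samples scatter. In bulk RNA, fewer cells of a type and less RNA per cell cannot be told apart.

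Secreted and membrane proteins enter the ER through the Sec61 translocon, fold there with the help of chaperones and oxidizing disulfide isomerases, and are checked by lectins that read their sugar chains. Proteins that fail to fold are drawn back into the cytosol and destroyed by the proteasome, a route called ER-associated degradation. When unfolded proteins build up, the sensors IRE1 (Ern1), ATF6 and PERK start the unfolded protein response, which raises transcription of many of these same genes, and hepatocytes, which secrete most plasma proteins, depend on it heavily.

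Promoters of many unfolded protein response genes carry a short sequence, the ER stress element, to which ATF6 binds together with the factor NF-Y, so the members that hold it are shown before the expression values. Promoter windows of 300 bases, reaching from 250 bases before to 50 bases after the start of transcription, were available from RefSeq on GRCm38.p6 for 32 of the 39 members and not for Atf6, Derl1, Erp29, Hyou1, Manf, Sec61a1 and Ssr2. The element searched, on both strands, was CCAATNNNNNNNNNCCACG, that is CCAAT, 9 bases of any kind and CCACG. It was found in the windows of 9 of the 32 members, and in 37 of 27025 genes with a window (0.14%). Each is printed on its own strand with CCAAT and CCACG in capitals.
Hspa5, chr2:34772025-34772043: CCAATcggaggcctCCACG
Derl3, chr10:75893242-75893260: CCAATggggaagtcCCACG
Dnajc3, chr14:118937827-118937845: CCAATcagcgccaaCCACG
Hsp90b1, chr10:86705638-86705656: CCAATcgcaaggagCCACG
Hsp90b1, chr10:86705533-86705551: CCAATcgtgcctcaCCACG
Calr, chr8:84847075-84847093: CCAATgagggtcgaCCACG
Canx, chr11:50325800-50325818: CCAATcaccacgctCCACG
Creld2, chr15:88819520-88819538: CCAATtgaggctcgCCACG
Pdia6, chr12:17266491-17266509: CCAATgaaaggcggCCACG
Syvn1, chr19:6046532-6046550: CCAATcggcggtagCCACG

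The 5 letters at each end are fixed by the search, while the 9 bases between them differed in every element printed. Of the members with the element, 8 held it once and Hsp90b1 held it at 2 places. The Hspa5 element lay at positions -65 to -47 from the start of transcription, and those of Derl3 and Dnajc3 at -156 to -138 and -105 to -87. Derl3, Creld2, Canx and the first Hsp90b1 element are on the minus strand of the chromosome and the others on the plus strand.

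The other 3 motifs were rarer among the members. The ER stress element II, searched as ATTGGNCCACG, was in 2 members and in 12 of the 27025 genes (0.04%), and is printed with its fixed letters in capitals.
Dnajb11, chr16:22857852-22857862: ATTGGcCCACG
Herpud1, chr8:94386377-94386387: ATTGGgCCACG
The unfolded protein response element TGACGTGG, which XBP1 can bind, was in 1 member, Txndc5, and in 193 genes (0.71%). The CARE motif TGATGNAA, which ATF4 and its partners can bind, was in 2 members, Herpud1 and Txndc5, and in 1219 genes (4.51%). None of the sites found in the members overlapped another. A match only says that these letters are in the window, and no match says only that they are not.

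For the members with the largest rises and falls among those with a window, the whole window is printed, 5′ to 3′ in the direction of the gene, with a matched element in capitals. Derl3 (chr10:75893148-75893447, plus strand) holds the ER stress element in reverse, and Txndc5 (chr13:38527865-38528164, minus strand, the first of its 3 windows) holds TGACGTGG. Ern1 (chr11:106487747-106488046, minus strand) and Pdia5 (chr16:35490824-35491123, minus strand) held none of the 4 motifs.
Derl3: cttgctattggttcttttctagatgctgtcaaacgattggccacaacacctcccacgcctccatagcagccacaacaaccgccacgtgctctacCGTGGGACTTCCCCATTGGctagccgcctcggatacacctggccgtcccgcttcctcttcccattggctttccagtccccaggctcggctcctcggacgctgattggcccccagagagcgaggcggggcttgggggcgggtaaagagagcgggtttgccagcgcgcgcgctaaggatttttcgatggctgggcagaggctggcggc
Ern1: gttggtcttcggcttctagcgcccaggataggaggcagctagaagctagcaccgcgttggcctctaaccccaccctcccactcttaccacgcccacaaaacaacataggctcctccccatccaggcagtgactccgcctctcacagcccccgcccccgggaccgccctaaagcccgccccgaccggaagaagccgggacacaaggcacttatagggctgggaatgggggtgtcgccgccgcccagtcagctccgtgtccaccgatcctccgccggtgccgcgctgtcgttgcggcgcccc
Pdia5: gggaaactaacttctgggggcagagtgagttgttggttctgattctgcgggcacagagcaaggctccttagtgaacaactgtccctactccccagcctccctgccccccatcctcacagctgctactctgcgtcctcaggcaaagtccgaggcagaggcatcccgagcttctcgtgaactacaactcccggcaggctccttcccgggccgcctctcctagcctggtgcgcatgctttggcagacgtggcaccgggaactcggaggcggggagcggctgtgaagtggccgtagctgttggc
Txndc5: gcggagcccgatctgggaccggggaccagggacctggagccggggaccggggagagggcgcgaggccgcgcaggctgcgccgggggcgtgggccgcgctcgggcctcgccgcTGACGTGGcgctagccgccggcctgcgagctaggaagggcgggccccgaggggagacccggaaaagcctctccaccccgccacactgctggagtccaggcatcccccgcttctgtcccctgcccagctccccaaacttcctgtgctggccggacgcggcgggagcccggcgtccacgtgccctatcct

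In alcohol samples the sensor genes Atf6 and Ern1, the degradation genes Derl1, Derl3 and Sel1l and the chaperone genes Hspa5 and Dnajc3 rose. The isomerase family genes Pdia3, Pdia4, Pdia5 and Txndc5 and the ER protein gene Manf fell. Levels are FPKM, that is sequenced fragments relative to both the length of the gene and the library total, and changes are differences of mean log2(FPKM + 1) between alcohol and control, which understate the change of genes with low values. All 39 members had a mean of at least 1 FPKM and were among the 9228 genes of the table that met this minimum and were tested by limma, with Benjamini-Hochberg adjustment over all of them and a threshold of 0.05. The lowest group mean of any member was that of Derl3 in controls, 1.90 FPKM, so each also met that minimum in either group alone. Of the 39 members 11 were higher (28.2%), 8 were lower (20.5%) and 20 did not pass. Over all tested genes 44.2% were higher and 13.0% lower, 57.2% in either direction, so the members' share of rises was below that of the table and their share of falls above it.

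The median log2 change was 0.03 over the members and 0.24 over all tested genes, and 12 members lay above that median of all genes and 27 below it. The groups did not overlap for 14 members, with alcohol above control for 9 and below for 5. Over all tested genes the groups did not overlap for 50.2%, with alcohol above for 39.5% and below for 10.7%. For each of these 9 and 5 members the exact 2-sided permutation p was 0.0286, the smallest that 4 samples against 4 can give. Groups that do not overlap always give this value, so it is not a further test of these members. Median-of-ratios scaling moved the median of all genes to -0.003, and the members then split into 7 higher and 17 lower. Under it 2386 of the 9228 tested genes were higher and 2446 lower. With quantile normalization the split was 9 and 10, beside 2221 and 2307 of all tested genes. On the TPM scale it was 13 and 5, beside 4867 and 814, where the median of all genes was 0.40. The 7 members Atf6, Ern1, Derl1, Derl3, Sel1l, Hspa5 and Dnajc3 were higher, and the 5 members Pdia3, Pdia4, Pdia5, Txndc5 and Manf lower, under all 18 alternatives tried. The share of all tested genes that kept a call under all 18 was not counted, so these 7 and 5 have no such share beside them.

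**Figure D1:**
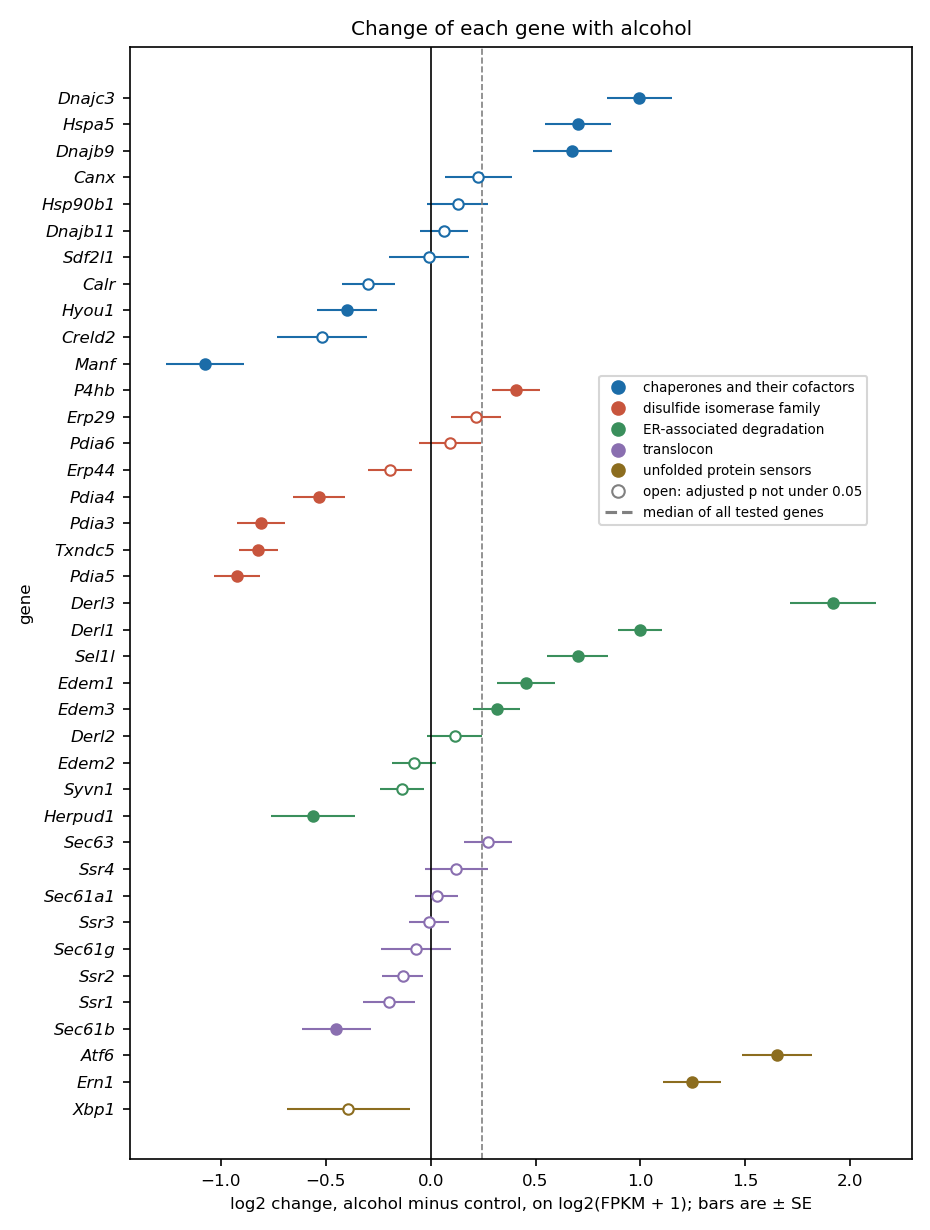
Log2 change (alcohol minus control, on log2(FPKM + 1), with its SE) of each of the 39 members grouped by role, with the median of all tested genes as a dashed line at 0.24. Filled points passed the threshold, and they reach from Manf at -1.08 to Derl3 at 1.92.

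Library totals recovered from the FPKM values were 37132631 to 38407511 reads in alcohol samples and 33872595 to 34789814 in controls. A member had between 49 reads (Derl3, control sample 2) and 87858 reads (P4hb, alcohol sample 3) in a sample, so counting error was small except for Derl3. Taken over all 39 members, 0.780% to 0.883% of library reads came from them in alcohol samples and 0.693% to 0.801% in controls, ranges that overlap. Alcohol samples 2 and 4 resembled each other most closely of the pairs within a group, with a chi-square per gene of 8.06 against 42.0 for the next. Exons of 13 members overlap those of another gene in GENCODE M21, 3 of them on the same strand, and the labels do not state whether counting used strand. Of the members that passed, Manf, Pdia3 and Txndc5 overlap genes whose levels are given with them, while Dnajb9 overlaps Mir5627 on the other strand and Pdia4 overlaps Mir704 on the same strand.

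**Figure D2:**
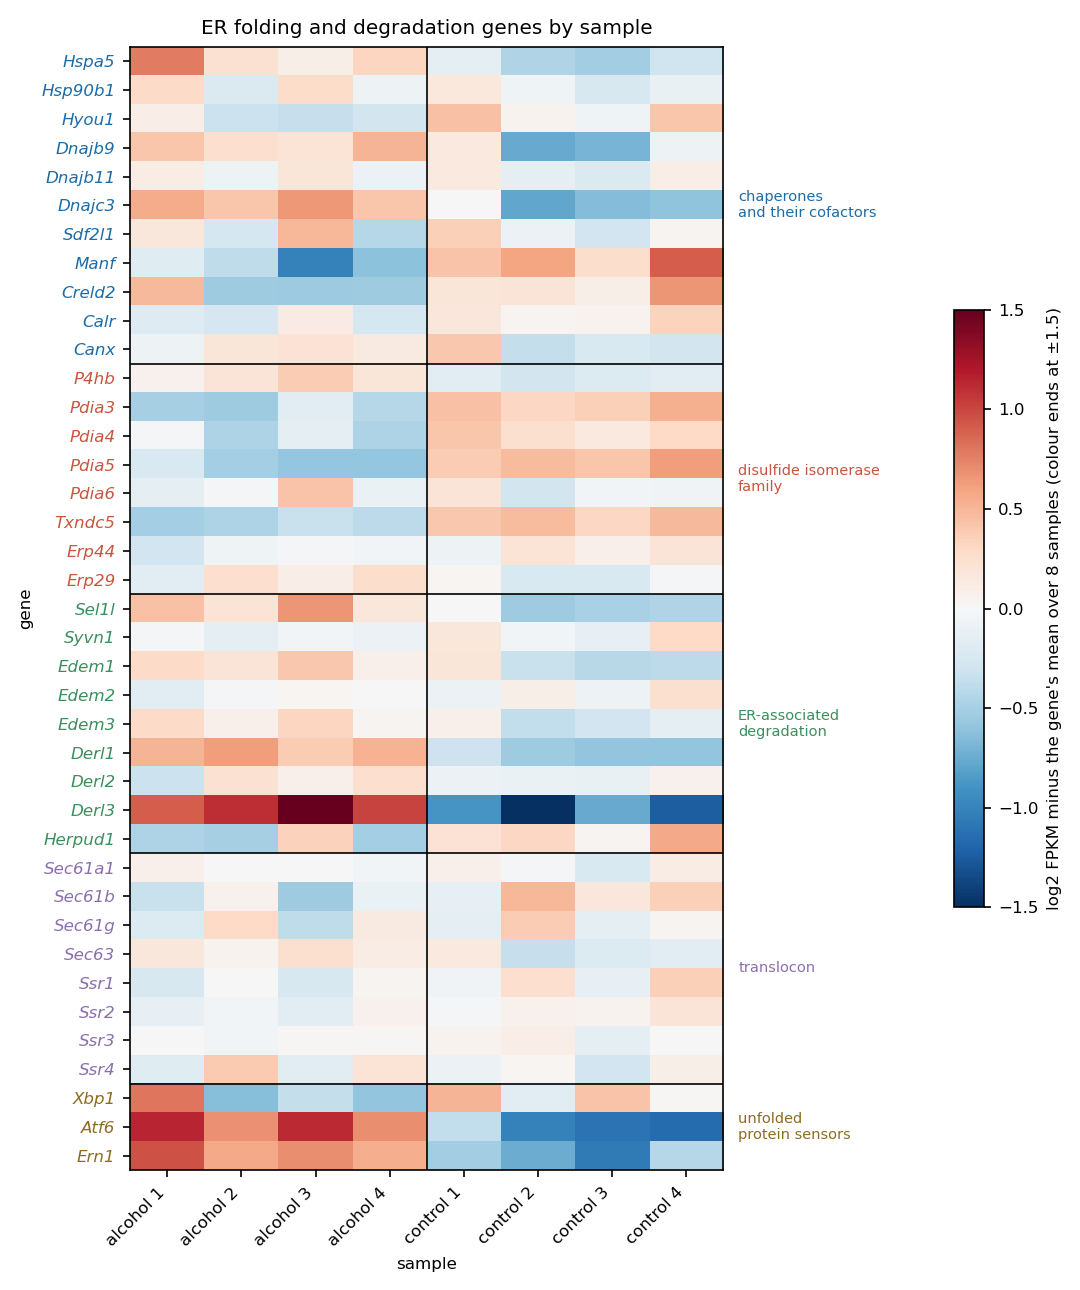
Log2 FPKM of each member in each of the 8 samples, less its mean over all 8 (red above, blue below, colour ends at 1.5 in either direction), with the 4 alcohol samples left of the 4 controls and members grouped by role. Atf6, Ern1, Derl1 and Derl3 are higher in every alcohol sample than in any control, and Txndc5, Pdia3, Pdia5 and Manf lower.

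Among the sensors the genes of the ER membrane proteins ATF6 and IRE1 rose, while Xbp1, the transcription factor gene whose mRNA IRE1 splices, did not pass. Atf6, on chromosome 1 from 170704674 to 170867771 (minus strand, GRCm38), is cut in the Golgi to free a transcription factor. It stood at 22.35, 16.3, 22.0 and 16.4 FPKM in alcohol samples 1 to 4, against 7.80, 4.99, 4.68 and 4.52 FPKM in control samples 1 to 4. Every alcohol sample was above the highest control, which was control sample 1. The means were 19.25 ± 3.37 FPKM in alcohol samples and 5.496 ± 1.55 FPKM in controls (SD, n = 4 each), a ratio of 3.502, with a log2 change of 1.65 ± 0.17 (SE) and an adjusted p of 2.81e-05 in limma.

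Ern1, on chromosome 11 from 106394650 to 106487852 (minus strand), encodes IRE1 alpha, a kinase and endoribonuclease. Its levels were 19.2, 14.6, 15.9 and 14.3 FPKM in alcohol samples and 6.88, 5.89, 4.73 and 7.31 FPKM in controls. The lowest alcohol sample was above the highest control, and the ratio of the means was 2.58. This gave a log2 change of 1.25 ± 0.14 (SE), at an adjusted p of 4.59e-05 by limma.

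Xbp1 stood at 191, 70.2, 85.6 and 72.6 FPKM in alcohol samples and 156, 97.7, 148 and 111 FPKM in controls. Alcohol sample 1 was the highest of all 8, and the other alcohol samples were below every control. By limma the log2 change was -0.39 ± 0.29 (SE), adjusted p = 0.27. Without alcohol sample 1 it was -0.72 and passed as lower (limma adjusted p = 0.00649, and between that and 0.517 in the 18 alternatives). The summed level of the neutrophil markers was also highest in alcohol sample 1, at 34.7 FPKM with a lowest alcohol sample of 1.45 FPKM, against 2.68 to 4.54 FPKM in controls, and its part in the Xbp1 value was not tested. The table has 1 value for each symbol, so spliced and unspliced Xbp1 mRNA are not separated. In each sample Xbp1 was the most abundant of the 3, with 69.3% to 82.1% of their summed FPKM in alcohol samples and 90.0% to 94.0% in controls.

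Of 9 other tested genes for sensors and the proteases that act on them, 4 were higher and the other 5 did not pass. Other scalings gave 2 to 5 higher and up to 2 lower. For comparison, 44.2% of all tested genes were higher and 13.0% lower, with a median log2 change of 0.24. The site 2 protease gene Mbtps2, whose product cuts ATF6, averaged 2.69 ± 0.22 FPKM in alcohol samples and 1.41 ± 0.17 FPKM in controls (SD, n = 4 each). The site 1 protease gene Mbtps1 averaged 14.9 ± 1.58 FPKM in alcohol samples and 9.36 ± 1.61 FPKM in controls. Eif2ak3, which encodes PERK, averaged 3.10 ± 0.33 FPKM in alcohol samples and 1.89 ± 0.64 FPKM in controls, with a log2 change of 0.53 and a limma adjusted p of 0.0119. Of 11 genes of the output of PERK and ATF4, 9 were higher, also over the other scalings, where up to 1 was lower, with a median log2 change of 1.52. They were led by Atf3 at 105.5 ± 67.7 FPKM in alcohol samples and 0.246 ± 0.090 FPKM in controls, and Trib3, a pseudokinase gene, at 165 ± 26.4 FPKM in alcohol samples and 2.21 ± 1.18 FPKM in controls. Nupr1, a stress-induced nuclear protein gene, had a log2 change of 3.70 and Ddit3, which encodes CHOP, one of 3.67.

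**Figure D3:**
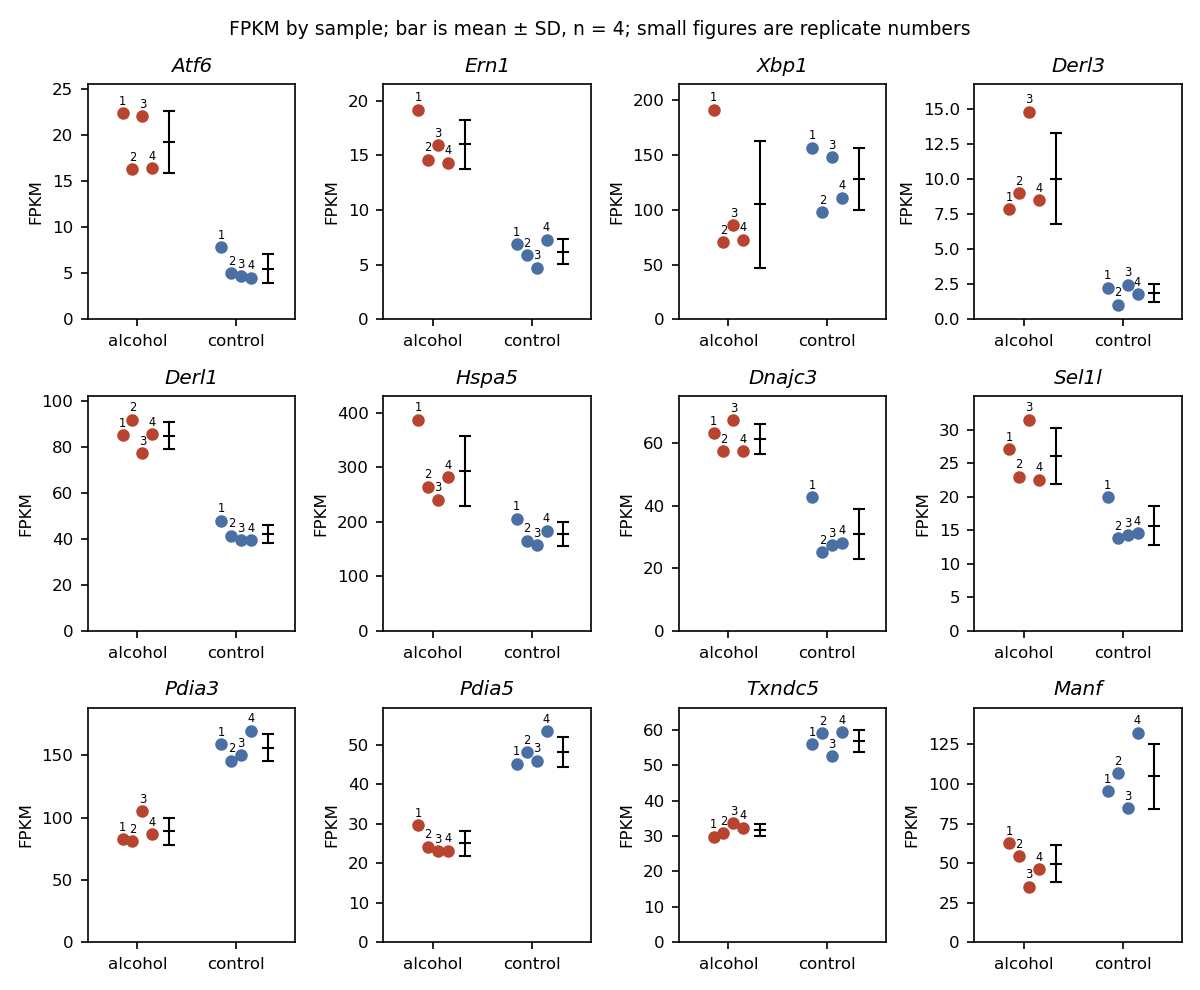
FPKM of 12 members in each sample, alcohol left of control, each point 1 sample and each bar the mean ± SD (n = 4 per group), on axes that start at 0. The groups do not overlap for any gene shown except Xbp1, where alcohol sample 1 stands at 191 FPKM.

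In ER-associated degradation 5 of 9 genes were higher (55.6%) and 1 lower (11.1%), against 44.2% and 13.0% over all tested genes. With median-of-ratios scaling 3 were higher and 3 lower, beside 2386 and 2446 of the 9228 tested genes. The derlins, which form part of the channel that draws proteins out of the ER, differed among themselves. Derl3, on chromosome 10 from 75893413 to 75895941 (plus strand), had the largest change of all members. It stood at 7.87, 9.04, 14.8 and 8.49 FPKM in alcohol samples and 2.27, 1.06, 2.49 and 1.78 FPKM in controls, with alcohol sample 3 the highest. These are 405, 451, 766 and 424 reads in alcohol samples and 106, 49, 116 and 81 reads in controls. The lowest alcohol count has a 95% Poisson interval of 366.5 to 446.4 and the highest control count one of 95.9 to 139.1, which cover counting error only. The ratio of the means was 5.30 and the log2 change 1.92 ± 0.21 (SE). The adjusted p in limma was 3.88e-05, and 1.85e-05 to 0.000882 over the alternatives.

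Derl3 is known from secretory cells such as plasma cells, so their markers are given beside it. Of the 8 plasma and B cell markers listed, 2 were tested: Jchain, the joining chain of antibodies, was lower at 0.921 ± 0.168 FPKM in alcohol samples and 1.61 ± 0.164 FPKM in controls. Sdc1, which hepatocytes also express, was higher at 76.2 ± 14.8 FPKM in alcohol samples and 41.8 ± 9.70 FPKM in controls. Tnfrsf17, a defining plasma cell receptor gene, was at 0 in all alcohol samples and averaged 0.0159 FPKM in controls. Mzb1 averaged 0.255 FPKM in alcohol samples and 0.208 FPKM in controls. Cd79a and Cd79b averaged 0.1865 and 0.1176 FPKM in alcohol samples and 0.7958 and 0.9281 FPKM in controls, without overlap. Pou2af1, also without overlap, averaged 0.01025 FPKM in alcohol samples and 0.1047 FPKM in controls. Ms4a1 averaged 0.02223 FPKM in alcohol samples and 0.1131 FPKM in controls. The sum of the list ran from 62.9 to 92.8 FPKM in alcohol samples and from 37.5 to 59.0 FPKM in controls, nearly all of it Sdc1. The part of such cells in the Derl3 change was not tested.

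Derl1 stood at 85.1, 91.8, 77.3 and 85.4 FPKM in alcohol samples and 47.85, 41.3, 39.5 and 39.4 FPKM in controls. The groups were far apart relative to their spread, with a log2 change of 1.00 ± 0.10 (SE) and an adjusted p of 3.33e-05 in limma. Derl2 averaged 33.5 ± 5.71 FPKM in alcohol samples and 30.5 ± 1.80 FPKM in controls, with a limma adjusted p of 0.467. Within a sample the ratio of Derl1 to Derl2 was 2.26 to 3.35 with alcohol and 1.186 to 1.603 in controls, a ratio that no scaling of a whole library can move.

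Sel1l, the adaptor of the ubiquitin ligase HRD1, stood at 27.1, 23.0, 31.5 and 22.5 FPKM in alcohol samples and 19.97, 13.8, 14.3 and 14.6 FPKM in controls. Control sample 1 was the highest control and still below the lowest alcohol sample. Sel1l had a log2 change of 0.70 ± 0.14 (SE) and an adjusted p of 0.00201 in limma. Syvn1, the gene of HRD1 itself, averaged 13.0 ± 0.419 FPKM in alcohol samples and 14.5 ± 1.95 FPKM in controls (limma adjusted p = 0.286). With median-of-ratios scaling and with quantile normalization Syvn1 passed as lower (log2 changes of -0.42 and -0.37). The ratio of Sel1l to Syvn1 was 1.75 to 2.38 with alcohol and 0.867 to 1.30 in controls.

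The EDEM genes encode mannosidase-like proteins that mark misfolded glycoproteins for removal. Edem1 averaged 26.0 ± 2.52 FPKM in alcohol samples and 18.9 ± 4.05 FPKM in controls, with a log2 change of 0.46 ± 0.14 (SE) and an adjusted p of 0.0165 in limma. Its groups overlapped, because control sample 1 at 24.9 FPKM was above alcohol sample 4 at 23.1 FPKM. It missed the threshold under median-of-ratios scaling (adjusted p = 0.269), with quantile normalization (0.102) and without control sample 3 (0.0529). Edem3 averaged 7.29 ± 0.724 FPKM in alcohol samples and 5.68 ± 0.796 FPKM in controls, with a log2 change of 0.31 and a limma adjusted p of 0.0324, a call that was lost under 10 of the 18 alternatives. These included leaving out alcohol sample 1 or 3 or control sample 2, 3 or 4. Edem2 averaged 28.15 ± 1.73 FPKM in alcohol samples and 29.9 ± 3.25 FPKM in controls and did not pass.

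Herpud1, which encodes HERP, a membrane protein that assembles the degradation complex, was the most abundant of the 9 in every sample. It stood at 135, 132, 238 and 131 FPKM in alcohol samples and 216, 232, 191 and 276 FPKM in controls. Alcohol sample 3 was the only alcohol sample within the range of the controls. The Herpud1 log2 change of -0.56 ± 0.20 (SE) passed (limma adjusted p = 0.0325), and that call was lost under 10 of the 18 alternatives (limma adjusted p up to 0.101). These included leaving out alcohol sample 1, 2 or 4 or control sample 2 or 4, while without alcohol sample 3 the call remained. Herpud1 made up 36.0% to 50.1% of the summed FPKM of the 9 genes in alcohol samples and 55.4% to 63.0% in controls.

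Of 27 other tested genes of this route 16 were higher and 3 lower, with a median log2 change of 0.33. That median was 0.24 over all tested genes, of which 44.2% were higher and 13.0% lower. The rhomboid protease gene Rhbdd1 averaged 4.85 ± 0.372 FPKM in alcohol samples and 1.72 ± 0.230 FPKM in controls. Ube2g2, a ubiquitin-conjugating enzyme gene, averaged 30.0 ± 5.16 FPKM in alcohol samples and 12.1 ± 2.84 FPKM in controls. The membrane ubiquitin ligase gene Rnf139 and the HERP relative Herpud2 had log2 changes of 0.86 and 0.66. Over the other scalings 6 to 17 of the 27 were higher and 3 to 6 lower.

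Among the chaperones and their cofactors 3 of 11 were higher (27.3%) and 2 lower (18.2%), against 44.2% and 13.0% over all tested genes. With median-of-ratios scaling 2 were higher and 4 lower, beside 2386 and 2446 of the 9228 tested genes. Hspa5, which encodes BiP, the main chaperone of the ER and the one that holds the sensors inactive, lies on chromosome 2 from 34771970 to 34777547 (plus strand). It stood at 388, 264, 241 and 282 FPKM in alcohol samples and 206, 165, 157 and 184 FPKM in controls, so the groups did not overlap. Its log2 change of 0.70 ± 0.16 (SE) passed, with an adjusted p by limma of 0.0034, and of up to 0.0492 over the alternatives. Hsp90b1, which encodes GRP94, the ER member of the HSP90 family, averaged 199 ± 34.1 FPKM in alcohol samples and 181 ± 21.4 FPKM in controls (limma adjusted p = 0.46). The ratio of Hspa5 to Hsp90b1 was 1.69, 1.63, 1.058 and 1.58 in alcohol samples and 0.980, 0.915, 0.988 and 1.057 in controls, so that alcohol sample 3 stood level with the highest control.

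The J-domain cofactors of BiP were not alike. Dnajc3 stood at 63.1, 57.2, 67.2 and 57.4 FPKM in alcohol samples and 42.6, 25.1, 27.4 and 28.1 FPKM in controls. All alcohol samples were above all controls, with a log2 change of 0.995 ± 0.15 (SE) and an adjusted p of 0.000378 in limma. Dnajb9 averaged 48.7 ± 4.82 FPKM in alcohol samples and 31.1 ± 9.61 FPKM in controls, with a log2 change of 0.68 and a limma adjusted p of 0.011, which median-of-ratios scaling took below the threshold (0.38, adjusted p = 0.103). Dnajb11 averaged 21.6 ± 2.06 FPKM in alcohol samples and 20.7 ± 2.50 FPKM in controls, and its partner Sdf2l1 13.4 ± 3.90 FPKM in alcohol samples and 13.2 ± 2.57 FPKM in controls, and neither passed. The ratio of Dnajc3 to Dnajb11 was 2.77 to 2.91 with alcohol and 1.26 to 1.83 in controls.

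Manf, an ER protein that binds BiP and can be secreted, fell. It stood at 62.7, 54.3, 35.1 and 46.35 FPKM in alcohol samples and 95.3, 107, 84.9 and 133 FPKM in controls. The highest alcohol sample was below the lowest control, with a log2 change of -1.08 ± 0.19 (SE) and an adjusted p of 0.000717 in limma. Its exons overlap those of Rbm15b on the same strand, which averaged 3.23 ± 0.385 FPKM in alcohol samples and 2.24 ± 0.434 FPKM in controls. They also overlap those of Dcaf1 on the other strand, at 4.21 ± 1.05 FPKM in alcohol samples and 3.14 ± 0.502 FPKM in controls.

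Hyou1, the nucleotide exchange factor of BiP, averaged 13.8 ± 2.18 FPKM in alcohol samples and 18.6 ± 3.24 FPKM in controls. Its log2 change of -0.40 ± 0.14 (SE) passed (limma adjusted p = 0.0327), but alcohol sample 1 at 17.1 FPKM lay above control samples 2 and 3. On the TPM scale it did not pass (limma adjusted p = 0.175), nor without alcohol sample 2, 3 or 4 or control sample 1 or 4 (0.073 to 0.091). Creld2, an ER protein gene induced by stress, stood at 18.35, 9.04, 8.97 and 9.04 FPKM in alcohol samples and 14.9, 14.9, 13.9 and 20.65 FPKM in controls. Alcohol sample 1 stood apart from the other alcohol samples, which lay below every control. The Creld2 log2 change of -0.52 ± 0.21 (SE) missed the threshold (limma adjusted p = 0.0595), and without alcohol sample 1 it was -0.75 and passed (0.00136).

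The lectin chaperones calreticulin and calnexin hold glycoproteins while they fold. Calr averaged 274 ± 36.6 FPKM in alcohol samples and 336 ± 33.4 FPKM in controls, and did not pass (limma adjusted p = 0.0682). Without alcohol sample 3, the highest of its group at 329 FPKM, the log2 change of -0.39 passed (limma adjusted p = 0.0258). Canx averaged 61.0 ± 5.37 FPKM in alcohol samples and 53.0 ± 14.1 FPKM in controls and did not pass either (limma adjusted p = 0.247). Without control sample 1, at 74.05 FPKM, Canx had a log2 change of 0.40 and passed (limma adjusted p = 0.00818). The most abundant chaperone was Hspa5 in alcohol samples 1, 2 and 4, and Calr in alcohol sample 3 and in all 4 controls.

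Of 24 other tested folding enzymes 9 were higher and 1 lower, with a median log2 change of 0.10. Other scalings gave 3 to 11 higher and 1 to 10 lower. Among all tested genes 44.2% were higher and 13.0% lower, with a median of 0.24. Ero1a, the oxidase that supplies disulfide bonds to the isomerases, averaged 6.43 ± 1.71 FPKM in alcohol samples and 2.15 ± 0.617 FPKM in controls, with a log2 change of 1.23. The thioredoxin-like gene Tmx3 and Mesd, a chaperone of lipoprotein receptors, had log2 changes of 0.51 and 0.57. Txndc11 was lower, at 5.42 ± 0.790 FPKM in alcohol samples and 9.71 ± 2.34 FPKM in controls.

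In the disulfide isomerase family 1 of 8 genes was higher and 4 were lower, with a median log2 change of -0.36. The shares of all tested genes were 44.2% higher and 13.0% lower, with a median of 0.24. With median-of-ratios scaling 0 of the 8 were higher and 5 lower, beside 2386 and 2446 of the 9228 tested genes. On the TPM scale 2 were higher and 4 lower, beside 4867 and 814. P4hb, which encodes protein disulfide isomerase itself, was the most abundant of all 39 members in every sample. It stood at 645, 701, 799.6 and 699 FPKM in alcohol samples and 549, 508, 533 and 547 FPKM in controls, so the groups did not overlap. This gave a log2 change of 0.41 ± 0.11 (SE), at an adjusted p of 0.0111 by limma. Under median-of-ratios scaling it missed the threshold, at 0.11 (adjusted p = 0.48). P4hb made up 67.7% to 69.5% of the summed FPKM of the family in alcohol samples and 53.7% to 55.5% in controls.

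Pdia3, or ERp57, which works with the lectin chaperones on glycoproteins, fell. It stood at 83.05, 81.1, 105 and 87.1 FPKM in alcohol samples and 159, 146, 150.4 and 169.9 FPKM in controls, with alcohol sample 3 the highest of its group. By limma the log2 change was -0.81 ± 0.11 (SE), adjusted p = 0.000213. Within a sample P4hb was 7.61 to 8.65 times Pdia3 with alcohol and 3.22 to 3.54 times in controls. Exons of Pdia3 overlap those of Catsper2 on the other strand, which averaged 0.661 FPKM in alcohol samples and 0.336 FPKM in controls.

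Txndc5, a thioredoxin-domain member of the family, had the smallest adjusted p of the family and fell. It stood at 29.8, 30.8, 33.7 and 32.3 FPKM in alcohol samples and 55.98, 59.0, 52.55 and 59.2 FPKM in controls. It had a log2 change of -0.82 ± 0.09 (SE) and an adjusted p of 5.1e-05 in limma. Its exons overlap those of Bmp6 on the other strand, at 1.67 FPKM in alcohol samples and 0.530 FPKM in controls.

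Pdia5, another isomerase gene, stood at 29.6, 24.2, 23.1 and 23.2 FPKM in alcohol samples and 45.2, 48.1, 46.0 and 53.5 FPKM in controls. No alcohol sample came near a control, with a log2 change of -0.92 ± 0.11 (SE) and an adjusted p of 7.1e-05 in limma. Pdia4, or ERp72, averaged 37.3 ± 5.88 FPKM in alcohol samples and 54.0 ± 4.26 FPKM in controls, without overlap, with a log2 change of -0.53 and a limma adjusted p of 0.00409. The other 3 did not pass. Pdia6 averaged 93.7 ± 18.5 FPKM in alcohol samples and 87.4 ± 11.4 FPKM in controls. Erp44, which retrieves proteins from the Golgi, averaged 16.0 ± 1.36 FPKM in alcohol samples and 18.4 ± 1.62 FPKM in controls, and Erp29, which lacks the redox centre, 31.0 ± 4.12 FPKM in alcohol samples and 26.4 ± 2.49 FPKM in controls. Erp44 passed as lower under median-of-ratios scaling, quantile normalization, removal of a trend with gene length, and without control sample 1. Erp29 passed as higher on the TPM scale, after removal of that trend, and without alcohol sample 1.

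**Figure D4:**
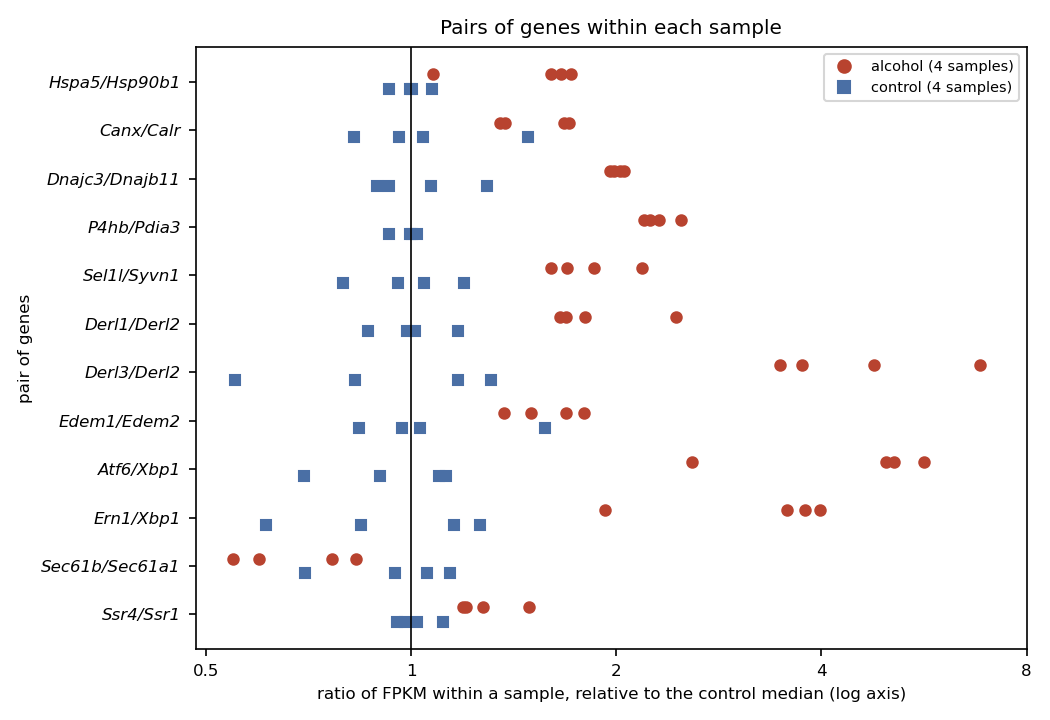
Ratio of the FPKM of 2 members within a sample for 12 pairs, divided by the control median of that ratio, on a log axis (circles alcohol, squares control, each point 1 sample). The groups do not overlap for 9 of the 12 pairs, among them P4hb over Pdia3, whose medians are 7.90 with alcohol and 3.47 in controls.

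The pairs of that plot were chosen after the values had been seen and are given without a test. A ratio within a sample does not depend on how the library was scaled, and it shows unequal change of the 2 genes. Beside those given above, Atf6 was at 0.117 to 0.257 times the level of Xbp1 in alcohol samples and 0.0316 to 0.0511 times in controls. Ern1 was at 0.1005 to 0.208 times Xbp1 in alcohol samples and 0.0320 to 0.0660 times in controls. The groups overlapped for Canx over Calr, for Edem1 over Edem2 and for Sec61b over Sec61a1.

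Of the 8 translocon genes 1 passed (12.5%), as lower, while 57.2% of all tested genes passed, 13.0% as lower. The median log2 change of the 8 was -0.04, beside 0.24 over all tested genes. On the TPM scale these medians were 0.11 and 0.40. Sec61b, which encodes a small subunit of the channel, stood at 76.4, 101, 66.8 and 90.3 FPKM in alcohol samples and 89.0, 137, 109 and 123 FPKM in controls. The groups overlapped and the gene was lower by limma, with a log2 change of -0.45 ± 0.16 (SE) and an adjusted p of 0.0359. It lost that call under 9 of the 18 alternatives, which included leaving out alcohol sample 1 or 3 or control sample 2, 3 or 4. Once a trend with gene length was removed its log2 change was -0.01 (limma adjusted p = 0.952).

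Sec61a1, the pore of the channel, averaged 53.6 ± 1.80 FPKM in alcohol samples and 52.65 ± 5.27 FPKM in controls, and Sec61g, the other small subunit, 50.1 ± 10.7 FPKM in alcohol samples and 52.3 ± 9.46 FPKM in controls. Neither passed (limma adjusted p = 0.819 and 0.74), but under median-of-ratios scaling Sec61a1 was lower (-0.27, adjusted p = 0.0448) and Sec61g was higher once the length trend was removed (0.30, adjusted p = 0.0381). Sec63, a J-domain protein gene of the channel, averaged 23.6 ± 1.38 FPKM in alcohol samples and 19.5 ± 2.94 FPKM in controls (limma adjusted p = 0.0592), and passed without control sample 1 (0.00683). The 4 subunits of the translocon-associated protein complex, which helps chains enter the channel, had log2 changes of -0.20 (Ssr1), -0.13 (Ssr2), -0.01 (Ssr3) and 0.12 (Ssr4), and none passed. With median-of-ratios scaling 5 of the 8 translocon genes passed, all as lower, while 2386 of the 9228 tested genes were higher and 2446 lower.

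Of 29 other tested genes of targeting, translocation and insertion 7 were higher and 3 lower, with a median log2 change of 0.00. Other scalings gave 3 to 9 higher and 2 to 13 lower. By comparison, 44.2% of all tested genes were higher and 13.0% lower, with a median of 0.24. Spcs1, of the signal peptidase, averaged 122.9 ± 20.4 FPKM in alcohol samples and 60.8 ± 19.6 FPKM in controls, and Emc10, of the membrane insertion complex EMC, 30.1 ± 3.96 FPKM in alcohol samples and 13.5 ± 3.31 FPKM in controls. Get4, of the tail-anchored protein route, had a log2 change of 0.56. Tram1, a partner of the channel, was lower at 41.2 ± 3.44 FPKM in alcohol samples and 55.4 ± 2.88 FPKM in controls. Of 15 genes of N-glycan transfer and trimming 6 were higher and 4 lower, and over the other scalings 3 to 6 were higher and 1 to 6 lower. A catalytic and an accessory subunit of the glycan transferase differed in direction, with Stt3b at 33.9 ± 2.33 FPKM in alcohol samples and 16.0 ± 1.41 FPKM in controls, and Magt1 at 10.0 ± 0.304 FPKM in alcohol samples and 15.8 ± 2.51 FPKM in controls. Mogs, the first trimming glucosidase, and Tusc3, a relative of Magt1, had log2 changes of 0.79 and 0.52.

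The summed level of 32 secreted liver proteins, which pass through this machinery, was 114900 to 120900 FPKM in alcohol samples and 122800 to 132800 FPKM in controls. The summed FPKM of all genes was 483138 to 523679 in alcohol samples and 517209 to 576544 in controls. Of the 32 genes 3 were higher and 7 lower, while 44.2% of all tested genes were higher and 13.0% lower. Other scalings gave 2 to 9 higher and 5 to 13 lower. Apoa1, the main protein of high-density lipoprotein, averaged 7633 ± 325 FPKM in alcohol samples and 13980 ± 1486 FPKM in controls. Ahsg, or fetuin A, averaged 10510 ± 853 FPKM in alcohol samples and 6102 ± 481 FPKM in controls. Itih2 and Vtn had log2 changes of 0.71 and -0.56.

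The change of a gene moved with its length, over the members as over the table. The Spearman rho of log2 change with length was 0.369 over the 39 members and 0.319 over 9222 genes, given as descriptions across genes that share the same 8 libraries. The 13 shortest members, of at most 2038 bases, had a median log2 change of -0.13, and the 13 longest, of at least 3676 bases, one of 0.27. Over all genes the median ran from -0.06 in the shortest of 5 equal length classes to 0.40 in the longest. Samples of 1 group also differed in this way, with a rho of a sample's deviation from its group mean with length of 0.347 and 0.410 in alcohol samples 1 and 3 and -0.482 and -0.392 in alcohol samples 2 and 4. Control sample 1 had a rho of 0.482 and the other controls -0.226 to -0.263. The part of length in the members' changes was tested only by removing the trend. After this 13 members were higher and 8 lower, and 4213 and 1110 of the 9228 tested genes.

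**Figure D5:**
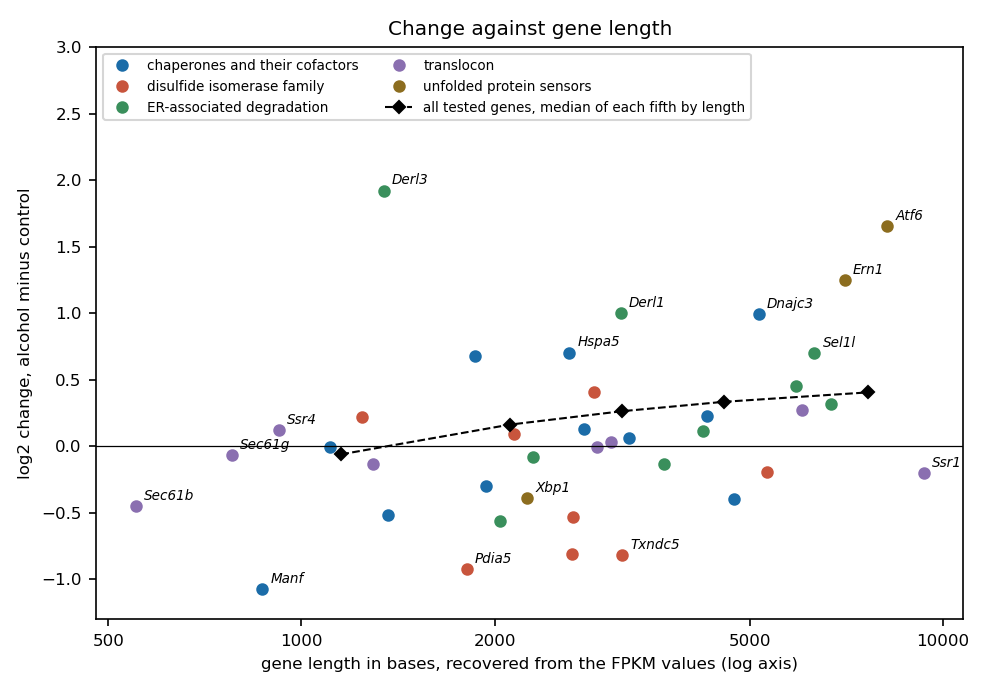
Log2 change of each of the 39 members against its gene length in bases (log axis), coloured by role, with the medians of all tested genes in 5 equal classes of length. Derl3, at 1344 bases, is short and has the highest change, while Atf6 and Ern1 lie among the longest members.

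Set beside the ER stress elements printed above, 3 of the 9 members that hold one were higher (Hspa5, Derl3 and Dnajc3) and 6 did not pass, with a median log2 change of 0.13. Of the 23 members with a window but no such element 6 were higher, 6 lower and 11 did not pass, with a median of -0.01. Of the 7 other tested genes with the element 2 passed, both as higher, with a median of 0.06. Members and other tested genes with the element made 16, of which 5 were higher and 0 lower, with a median of 0.11. Beside these, 44.2% of all tested genes were higher and 13.0% lower, with a median of 0.24. Among the 4 isomerase family members that fell none held the element, and neither did Ern1. Txndc5, which fell, held TGACGTGG, and Herpud1, with the second element, was also lower, although 10 of the 18 alternatives lost that call. These counts are descriptions, and the difference between the sets was not tested.

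Summed levels of endothelial and stellate cell markers were higher in every alcohol sample than in any control, while those of Kupffer cells, cholangiocytes, neutrophils, T and NK cells and red blood cells overlapped between the groups. All 8 markers of sinusoidal endothelium were higher, with a summed level of 68.4 to 84.5 FPKM in alcohol samples and 16.0 to 26.2 FPKM in controls. Of the 7 tested markers of stellate cells and fibroblasts 3 were higher and 1, Acta2, lower, while Des, Col1a1 and Col1a2 did not pass. Their list had sums of 100.7 to 143.7 FPKM in alcohol samples and 40.8 to 70.3 FPKM in controls. Most of each sum was Dcn, at 86.0 to 119.5 FPKM in alcohol samples and 30.7 to 60.2 FPKM in controls. Kupffer cell and macrophage markers summed to 86.8 to 136 FPKM in alcohol samples and 68.3 to 199 FPKM in controls, and 1 of 9 tested was lower. The pancreatic acinar markers Cpa1, Cpb1, Ctrb1, Prss2, Pnlip and Cel were at 0 in every alcohol sample and in control samples 2 and 3, with their levels in control samples 1 and 4 at most 2.27 FPKM. Cela2a, on the same list, was found in every control, at 0.562 to 3.71 FPKM, and at 0 to 0.282 FPKM in alcohol samples, without overlap. The list had a sum of 6.87 to 10.8 FPKM in alcohol samples and 12.8 to 27.4 FPKM in controls, most of it Cela1. Markers of T and NK cells summed to 0.924 to 2.85 FPKM in alcohol samples and 2.71 to 6.47 FPKM in controls, and those of cholangiocytes to 15.9 to 26.7 FPKM in alcohol samples and 19.0 to 41.8 FPKM in controls. Those of red blood cells summed to 122 to 196 FPKM in alcohol samples and 179 to 362 FPKM in controls. Of the 7 hepatocyte markers 2 were higher (Cps1 and Tat), 3 were lower (Apoa1, Ttr and Cyp2e1), and Hnf4a and Alb did not pass. Alb, the gene of albumin, averaged 40290 ± 4354 FPKM in alcohol samples and 36840 ± 1362 FPKM in controls. The part of these markers in the members' changes was not tested.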

How the data were processed

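Per the labels, RNA of 8 samples was column-purified and made into SMARTER mRNA libraries. The authors deposited FPKM per gene symbol, 1 column per sample for 21049 symbols. The submitters' processing notes name GRCm38 and mm10, while which aligner, counter, annotation and strand setting were used is not given in the sources used here. FPKM divides by each library's total, so a change in abundant transcripts moves all others.

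The 9228 genes that averaged 1 FPKM or more were fitted on log2(FPKM + 1) by limma 3.58.1 (R 4.3.3), with a term for group, a variance trend and Benjamini-Hochberg adjustment over all of them, at a threshold of 0.05. Fold changes are on that scale. Whole reads were recovered for 20973 genes (99.64%), to a tolerance of 0.0001 reads, and held 99.81% to 99.91% of each library total. They were used for depth, lengths and intervals. Spearman correlations of samples within a group were 0.968 to 0.995, and across the groups 0.884 to 0.926, and the chi-square per gene between reads of the same group was 8.06 to 168. Alcohol samples 2 and 4 gave the 8.06, and counting them as 1 sample was an alternative.

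The members, the gene and marker lists and the tests were chosen with earlier results of these data known. The text names all 39 members, and of each pathway list up to 4 genes past the threshold by smallest adjusted p. Other genes named, such as exon partners and markers, follow the lists or the annotation. Coordinates and exon overlaps are from GENCODE M21 on GRCm38, and promoter windows are from RefSeq on GRCm38.p6. The alternatives were another pseudocount (0.1), no filter, median-of-ratios scaling, quantile normalization, the TPM scale, scaling outside the 100 most abundant genes, removal of a length trend (span 0.3), no variance trend, a replicate block, alcohol samples 2 and 4 as 1, and each sample left out. The limma fit was tested on simulated data with independent normal noise, which held no trend with gene length. Protein sequences were not used here.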

Additional observations from a re-analysis of the deposited data

Results flagged for a closer look

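Each of the 39 members was examined for a sample that stands apart in either group of 4, taken as the highest or lowest sample whose gap to the nearest other exceeds Dixon's 95% critical value as a share of the group's range. Of 78 groups examined 12 had such a sample. For independent, normally spread values chance gives about 1 in 20, but the members share the same libraries. The share flagged among all tested genes was not counted, so the 12 are not read as particular to the members. In the alcohol group these were alcohol sample 1 for Hyou1 at 17.1 FPKM (the others 12.5 to 13.1), for Creld2 at 18.35 FPKM (8.97 to 9.04) and for Xbp1 at 190.9 FPKM (70.2 to 85.6). Alcohol sample 3 stood apart for Calr at 328.7 FPKM (the others at most 264), for Derl3 at 14.84 FPKM (7.87 to 9.04) and for Herpud1 at 238.1 FPKM (131 to 135). In the control group, control sample 1 stood apart for Canx at 74.05 FPKM (43.7 to 47.9), for Sel1l at 19.97 FPKM (13.8 to 14.6), for Edem1 at 24.92 FPKM (16.5 to 17.5) and for Atf6 at 7.802 FPKM (4.52 to 4.99). Control sample 4 stood apart for Creld2 at 20.65 FPKM (13.9 to 14.9) and for Derl2 at 33.19 FPKM (29.3 to 29.8). All 12 were the highest of their group, and alcohol samples 2 and 4 and control samples 2 and 3 had none.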

How the results depend on the processing

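Of 702 member values under the 18 alternatives, 630 stayed on their side of the threshold and 42 lost their call. Another 28 gained a call with the same sign and 2 gained a call with the other sign. Among the 630 were 30 that changed sign and passed in neither setting. Those 2 were Sec61a1 with median-of-ratios scaling (-0.27, from 0.03) and Sec61g with the length trend removed (0.30, from -0.07). Neither had passed in the main fit, so no call changed direction. With median-of-ratios scaling 7 members were higher and 17 lower, and 2386 of all tested genes were higher and 2446 lower. With quantile normalization all genes split into 2221 higher and 2307 lower. Both settings centre the samples by construction. Without a filter 5 members were lower, and 1345 of all 21049 genes. On the TPM scale 5 members were lower, and 814 of the 9228 tested genes. Leaving out each sample in turn gave 9 to 13 members higher and 5 to 8 lower (5 without control sample 4), and 3537 to 4362 genes higher and 1000 to 1278 lower over the table. Same-numbered samples correlated in their deviations from the group means at 0.349, 0.216, 0.071 and 0.280, all positive. These values do not settle whether the numbers pair the samples, and the main fit left the numbers out. Alcohol samples 1 and 4 correlated best with the control of their own number, and alcohol samples 2 and 3 with a control of another number. With the replicate block 12 members were higher and 9 lower (4307 and 1380 over all genes), the added calls being Sec63 and Creld2. With alcohol samples 2 and 4 as 1 sample 11 members were higher and 6 lower (3791 and 1099 over all genes). Depth limits Derl3 most, at 49 reads in its lowest sample. With 4 samples a group, the calls of Edem3 and Herpud1 (limma adjusted p = 0.0324 and 0.0325) were lost when some single samples were left out.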
